A study of Homo sapiens with 4 samples.

Results

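IFI6, IFI27, IFI35, IFI44, IFI44L, IFITM1, IFITM2, IFITM3, MX1 and ISG20 are effector genes of the interferon response, and their RNA was followed in an ovarian cancer cell line grown as a flat layer and as tumor spheroids. These 10 symbols, of 19475 in the data, were selected on their FPKM values in the same 4 libraries: they belong to families of interferon-induced genes that had been seen to be higher on polymer X. Where a symbol had several transcripts, the most abundant on average stands for it. Their differences between the groups are therefore given as a description, with no test. The cells were SKOV3, an established line from a human ovarian tumor. One group, of 2 libraries, was grown on TCP (tissue culture plastic) and is labelled day 0. The other, also of 2 libraries, was cultured on polymer X and is labelled day 8. Polymer X is a polymer thin-film coating on which the cells gather into spheroids. The labels give a single protocol with serum replacement for all 4 libraries, whereas the study's methods describe fetal bovine serum for routine culture, so substrate, time in culture and possibly medium cannot be told apart between the groups. Nothing in the labels says whether the libraries of a group came from separate cultures, so the p-values given for other genes measure only the spread between these samples, which may be technical. An exact two-sided permutation test of 2 against 2 libraries cannot give a p below 0.333.

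Type I interferons bind a receptor at the cell surface, and the kinases attached to it activate transcription factors, among them STAT2, which acts with IRF9 on DNA elements in front of their many target genes. The IFITM proteins sit in cell membranes and hinder the fusion of entering viruses, MX1 is a GTPase that blocks viral ribonucleoproteins, and ISG20 is an exonuclease that degrades RNA. In many tumors, ovarian cancer included, the same genes are found expressed without a known infection.

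The values are FPKM, that is, tags on the exons of a transcript per kilobase of its length and scaled to the tags of the library, as the authors deposited them. The low values fall on whole numbers of tags, which gives the total each library was scaled to: 38402500 and 44915500 tags on TCP, and 40028000 and 40682000 on polymer X. At these depths 3 tags on a transcript of 2000 bases are worth 0.0334 to 0.0391 FPKM, a limit that covers counting error only. All 10 genes passed the filter on low values, which asked for at least 1 FPKM in 2 libraries. IFITM1, IFI44L, MX1 and ISG20 passed only through their polymer X libraries, their mean on TCP being under 1 FPKM.

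All 10 genes were higher in both polymer X libraries than in both TCP libraries, as were 41.9% of the 11964 genes tested, while 48.4% were lower in both. The fit across all genes (limma, with a log2 fold change of at least 1 required) called all 10 higher, against 10.7% of the genes tested called higher and 9.45% called lower; the choice of the genes fixes this direction, and nothing is read from it. The ratio of mean FPKM ran from 2.72-fold for IFI35 to 266-fold for IFITM1, with a median of 20.2-fold. It lay above 10 for 6 genes and below 5 for 4. On the scale of log2(FPKM + 1), which understates the change of genes with low values, the median difference of the 10 genes was 2.86 and that of all tested genes -0.06. The highest and lowest of the genes, IFITM3 and IFI44L, lay 2512-fold and 5586-fold apart in the TCP libraries, a span that rests on 12 and 6 tags of IFI44L, and IFITM3 and MX1 lay 114-fold and 122-fold apart in the polymer X libraries. In bulk RNA, fewer cells of a type and less RNA per cell cannot be told apart.

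**Figure D1:**
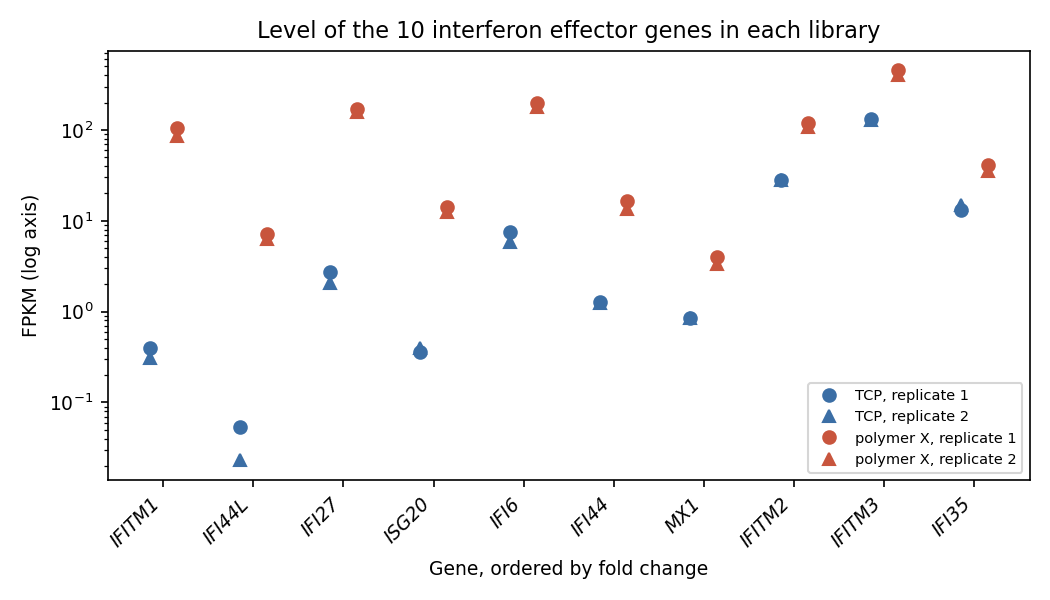
FPKM of the 10 genes on a log axis in each of the 4 libraries, ordered by the ratio of the group means. Blue marks are TCP and red marks polymer X, with circles for replicate 1 and triangles for replicate 2; in each gene both red marks lie above both blue marks, with the widest gap for IFITM1 (266-fold) and the narrowest for IFI35 (2.72-fold).

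The DNA in front of the genes was searched for the element that interferon-activated complexes bind. RefSeq promoter windows of 300 bases (GRCh38.p14, 250 bases before to 50 after a start site) were at hand for 9 of the 10 genes, IFITM2 being the one without. The core of the interferon-stimulated response element (ISRE), which reads GAAA, any 2 bases and GAAA again, was searched on both strands. It was present in 8 of the 9, all except IFI35, and in 4.38% of the 27305 genes with a window. The longer form that ends in CT, a subset of the first, was present in 6 of the 9 and in 0.322% of all genes. The core of the gamma-activated site (GAS), TTCNNNGAA, which reads the same on both strands, was found for IFI27, IFI35, IFITM1 and MX1, and in 9.38% of all genes. A match of letters is a description of the sequence and not evidence of binding.

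The stretch from 190 bases before to 10 bases after the start site is shown for IFITM3, IFI6, IFI27 and IFITM1, which with IFITM2 were the 5 most abundant of the genes on polymer X, and for IFI35, which had no match to the ISRE core. Capitals mark the ISRE core on either strand. The stretches are chr11:313850-314049 (plus strand) for IFITM1, chr11:320851-321050 (minus strand) for IFITM3, chr1:27672183-27672382 (minus strand) for IFI6, chr14:94110546-94110745 (plus strand) for IFI27 and chr17:43006594-43006793 (plus strand) for IFI35, all in GRCh38.p14.
IFITM1: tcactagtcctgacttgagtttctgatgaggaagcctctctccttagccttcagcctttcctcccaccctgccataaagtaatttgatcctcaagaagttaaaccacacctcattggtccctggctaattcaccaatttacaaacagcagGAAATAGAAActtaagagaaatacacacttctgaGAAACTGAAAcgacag
IFITM3: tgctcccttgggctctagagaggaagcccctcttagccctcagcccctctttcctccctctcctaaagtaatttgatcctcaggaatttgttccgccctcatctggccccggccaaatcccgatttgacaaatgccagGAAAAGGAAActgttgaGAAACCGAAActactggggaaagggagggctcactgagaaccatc
IFI6: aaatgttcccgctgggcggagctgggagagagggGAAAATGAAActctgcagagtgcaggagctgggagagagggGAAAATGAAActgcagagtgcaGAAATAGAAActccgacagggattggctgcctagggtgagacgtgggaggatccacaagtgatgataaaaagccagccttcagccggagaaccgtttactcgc
IFI27: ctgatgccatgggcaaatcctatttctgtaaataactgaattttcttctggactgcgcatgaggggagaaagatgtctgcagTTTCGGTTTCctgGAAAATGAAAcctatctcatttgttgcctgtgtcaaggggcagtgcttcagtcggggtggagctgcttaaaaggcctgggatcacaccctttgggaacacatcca
IFI35: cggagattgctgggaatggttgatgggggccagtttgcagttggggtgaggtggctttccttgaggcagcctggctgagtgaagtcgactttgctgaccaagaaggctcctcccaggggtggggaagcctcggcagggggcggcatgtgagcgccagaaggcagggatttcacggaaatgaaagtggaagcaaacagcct

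IFITM1 and IFITM3 each carried a pair of matches near the start site, beginning 40 and 6 bases before it in IFITM1 and 52 and 35 bases before it in IFITM3. The second match of IFITM1 runs across the start site. IFI6 carried 3 matches, beginning 156, 115 and 93 bases before the start. Where a gene has several windows, positions are counted from the most upstream start among them unless stated. The transcripts of ISG20 have 2 starts in hg19, but a single window was at hand. Which of these starts that window covers was not determined. In IFI27 a match on the opposite strand lay 108 bases before the start and another on the gene strand 95 bases before it. IFI44L held a match at 164 and another at 73 bases before its start, ISG20 held 1 at 69 bases, and IFI44 held 1 at 18 bases. For MX1, with 3 annotated starts, a match lay 11 bases after the most upstream start and another 196 bases before the most downstream one.

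**Figure D2:**
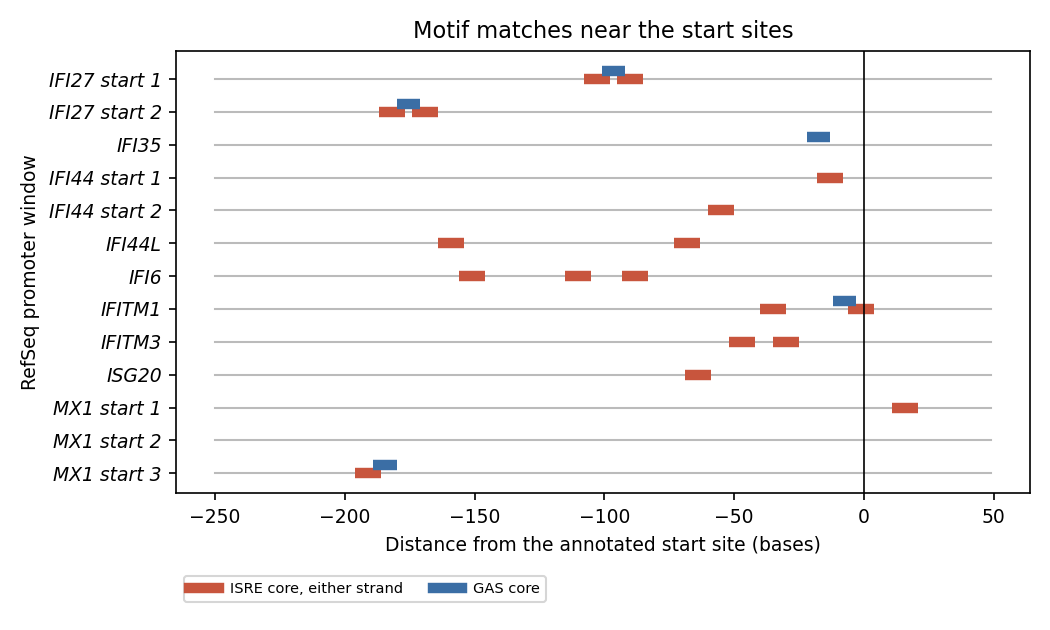
Position of motif matches in the RefSeq promoter windows, in bases from each annotated start site, with a row for each distinct start of the 9 genes with a window. Red bars are matches to the ISRE core on either strand and blue bars matches to the GAS core; every gene but IFI35 has at least 1 red bar.

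Among the membrane proteins, IFITM1 (NM_003641, chr11:313991-315272 in hg19, plus strand) had 0.402 and 0.312 FPKM on TCP and 104 and 86.3 FPKM on polymer X. The TCP values rest on 11 and 10 tags. IFITM1 was thus barely detected on the flat layer and was among the more abundant of the 10 genes in the spheroids, a ratio of 266-fold with 215 to 333 over the 4 pairs of libraries. Only 1 of the 11964 tested genes had a larger log2 fold change.

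IFITM2 (NM_006435, chr11:308107-309410, plus strand) stood at 28.0 and 27.8 FPKM on TCP and at 119.6 and 107 FPKM on polymer X, a ratio of 4.06. IFITM3 (NM_021034, chr11:319673-320914, minus strand) was the most abundant of the 10 genes in every library, with 133 and 128 FPKM on TCP and 454 and 404 FPKM on polymer X, a ratio of 3.28. In each of these genes both polymer X libraries lay above both TCP libraries, as in 41.9% of all tested genes. The libraries of a group differed by less than the groups. The choice of the genes fixes this direction, and nothing is read from it. In their levels, the 3 neighbouring genes differed far more from each other on TCP than on polymer X. IFITM1 made up 0.249% and 0.199% of the summed FPKM of the 3 genes on TCP and 15.3% and 14.4% on polymer X. The share of IFITM2 was 17.3% and 17.7% on TCP and 17.7% and 17.9% on polymer X, whereas that of IFITM3 was 82.4% and 82.1% on TCP and 67.0% and 67.6% on polymer X.

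**Figure D3:**
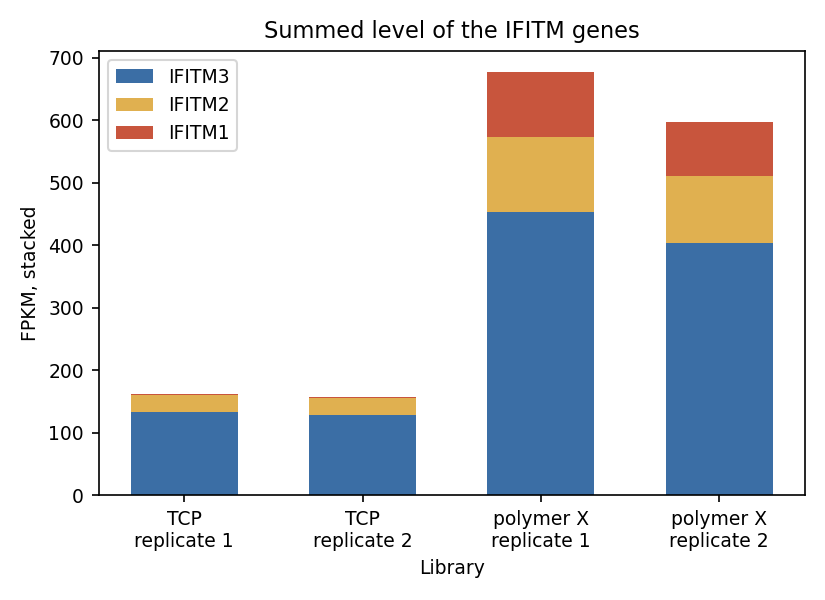
FPKM of IFITM1, IFITM2 and IFITM3 stacked for each library, from 0. The red segment of IFITM1 is 0.402 and 0.312 FPKM in the TCP libraries, too thin to be seen, and 104 and 86.3 FPKM in the polymer X libraries.

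These genes are similar in sequence. Of the 50-base stretches of the IFITM1 transcripts, 57.7% occur in no other gene's transcripts (GENCODE 29), against 84.3% for IFITM2 and 79.7% for IFITM3, and 39.0% of those of IFITM1 also occur in IFITM2 transcripts. The longest run shared by IFITM1 and IFITM3 was 141 bases. How the aligner divided such tags is not given in the sources used here, so the split between the IFITM genes is uncertain. On TCP the tags given to IFITM1 numbered 0.324% and 0.261% of those given to IFITM3. MX1 had 91.8% of its 50-base stretches to itself, with 7.20% shared with AP001610.1 on the opposite strand and 0.984% with MX2. The counting did not use strand, so reads in the stretch shared with AP001610.1 cannot be told apart. All 50-base stretches of the other 6 genes occurred in no other gene's transcripts.

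IFI6 and IFI27 encode small hydrophobic proteins of the same family, found in membranes of the endoplasmic reticulum and mitochondria. IFI6 (NM_002038, chr1:27992572-27998724 in hg19, minus strand) had 7.44 and 5.80 FPKM on TCP and 200.3 and 177 FPKM on polymer X, 28.5-fold more. IFI27 (NM_001288960, chr14:94577079-94583036, plus strand) had 2.71 and 2.05 FPKM on TCP and 169.6 and 156 FPKM on polymer X, 68.5-fold more. Both were expressed at a low level on the flat layer and came next after IFITM3 in level on polymer X. The longest run of bases that their transcripts share was 11.

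IFI44 and IFI44L are adjacent genes of related sequence whose products are cytoplasmic proteins of the antiviral response. IFI44 (NM_006417, chr1:79115477-79129763, plus strand) had 1.26 and 1.25 FPKM on TCP and 16.3 and 13.5 FPKM on polymer X, an 11.9-fold ratio. IFI44L (NM_006820, chr1:79086067-79111830, plus strand) had 0.053 and 0.023 FPKM on TCP, from 12 and 6 tags, and 7.15 and 6.34 FPKM on polymer X. The 95% Poisson intervals of the TCP values, 0.0274 to 0.0928 and 0.00833 to 0.0494 FPKM, overlap each other and lie far below the polymer X values. With so few tags the ratio of 178-fold is loose, and it ran from 119.6 to 311 over the 4 pairs of libraries.

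MX1 (NM_001282920, chr21:42803977-42831141, plus strand) had 0.860 and 0.859 FPKM on TCP and 3.98 and 3.32 FPKM on polymer X, 4.25-fold more, and was the lowest of the 10 genes on polymer X. ISG20 (NM_001303233, chr15:89178868-89199575, plus strand) had 0.361 and 0.402 FPKM on TCP and 14.3 and 12.4 FPKM on polymer X, 35.0-fold more. IFI35 (NM_001330230, chr17:41158742-41166476, plus strand), which binds its relative NMI, had 13.3 and 14.9 FPKM on TCP and 41.6 and 35.1 FPKM on polymer X, 2.72-fold more. By the ratio of mean FPKM the RNA-degrading ISG20 thus differed most of the 3, and IFI35, already expressed on the flat layer, differed least. On the scale of log2(FPKM + 1) MX1 differed least, by 1.32 against 1.38 for IFI35. In the order of levels, ISG20 and IFITM1 overlapped on TCP, as did IFI44 and ISG20 on polymer X, while no other neighbours in either order overlapped between libraries.

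The 10 genes together held 188 and 182 FPKM on TCP and 1131 and 1001 FPKM on polymer X, or 0.0598% and 0.0599% of the FPKM of all symbols against 0.407% and 0.368%. IFITM3 supplied 71.0% and 70.7% of this sum on TCP and 40.1% and 40.4% on polymer X. For the 5 genes with more than 1 annotated transcript the choice of transcript changed the ratio little, except for ISG20, whose 6 transcripts ran from 26.1-fold to 47.2-fold. The 10 transcripts of IFI27 ran from 59.8-fold to 69.9-fold and the 4 of MX1 from 4.17-fold to 4.86-fold.

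The replicates on polymer X differed in the same direction in every one of the 10 genes. Replicate 1 was higher than replicate 2 in 10 of 10, by 1.09 to 1.21 times, and in 63.8% of all tested genes. The median difference in log2(FPKM + 1) was 0.19 for the 10 genes and 0.04 for all genes. Among 38 other type I effectors tested, replicate 1 was higher in 35, with a median difference of 0.12. On TCP replicate 1 was higher in 8 of 10 genes, in 10 of the 38 other effectors (median -0.04) and in 48.8% of all genes. Between the replicates on polymer X the genes thus moved together by a small amount, while the difference from TCP was larger in each gene.

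**Figure D4:**
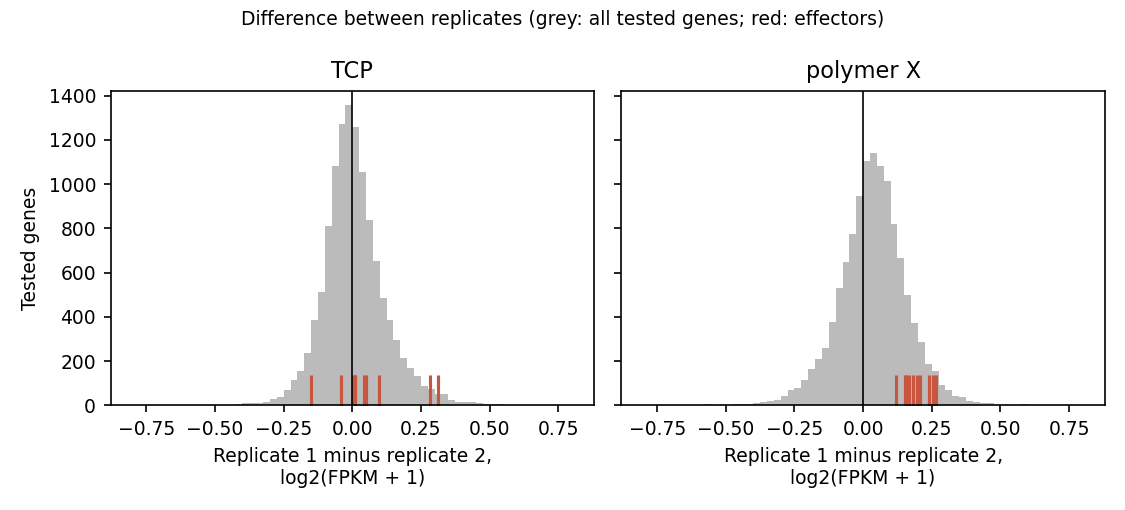
Number of tested genes by the difference between replicate 1 and replicate 2 in log2(FPKM + 1), on TCP (left) and on polymer X (right), with the 10 genes as red marks. On polymer X all 10 red marks lie to the right of 0, around a median of 0.19, whereas on TCP 8 of 10 do.

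Relatives of the 10 genes, and genes that share the IFI symbol, were tested in the fit across all genes, in which the median standard error of a log2 fold change was 0.07. In every gene named as higher or lower from this fit, both polymer X libraries lay on the same side of both TCP libraries. Of 9 such genes tested, 4 were higher on polymer X, 1 was lower and 4 were not called, with a median log2 fold change of 0.94. Of all tested genes 10.7% were called higher and 9.45% lower. Among the 7 of these genes that passed the filter on their TCP values, 2 were higher. The list was chosen with earlier results of these data known. MX2, the nuclear relative of MX1, had 0 FPKM in both TCP libraries and 2.95 and 1.95 FPKM on polymer X, at least 92.5-fold higher when both TCP libraries are set to the higher of their floors of 3 tags. IFITM10 had 0.591 and 0.625 FPKM on TCP and 5.25 and 5.11 FPKM on polymer X. These 2 genes passed the filter only through the polymer X libraries, where they are high, so their calls and their part in the median add no support. IFI16 and IFI30 share only the symbol prefix with the 10 genes. The DNA sensor IFI16 rose from 4.74 and 4.07 to 24.1 and 22.2 FPKM (limma adjusted p = 1.52e-08). IFI30, a lysosomal thiol reductase, rose from 4.47 and 3.65 to 12.2 and 10.9 FPKM (adjusted p = 1.05e-06). AEN, a nuclease related to ISG20, moved the other way, from 6.25 and 6.15 to 0.827 and 0.806 FPKM (adjusted p = 1.75e-08). With quantile normalization or without TCP replicate 1, 5 of these genes were higher in place of 4. The log2 fold changes of the uncalled genes were 0.94 for IFI27L2, next to the threshold, 0.26 for IFI27L1, 0.06 for NMI and -0.59 for ISG20L2. IFITM5 did not pass the filter on low values, with 0.071 and 0.030 FPKM on TCP and 0 in both polymer X libraries.

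The genes for interferons themselves were mostly at 0. Of 22 ligand genes, 18 were at 0 in all 4 libraries, among them IFNB1, IFNG and IFNL1, and 3 tags would have given 0.0780 to 0.0913 FPKM for IFNB1 and 0.0555 to 0.0649 FPKM for IFNG. Of the other 4, IFNA1, named after its values were seen, had 0.061 and 0.078 FPKM on TCP and 0.290 and 0.171 FPKM on polymer X, from 2 to 10 tags, while IFNA8 and IFNW1 reached no more than 5 tags per library. The highest was IFNE, an interferon of reproductive tract epithelium, at 1.04 and 0.817 FPKM on TCP and 4.42 and 4.38 FPKM on polymer X. IFNE was the sole ligand gene to pass the filter on low values, with a log2 fold change of 1.49 that limma called higher; it would not have passed on its TCP values alone.

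Of 8 receptor and kinase genes tested, limma called 0 in either direction at these thresholds, although 5 were higher and 2 lower at an unadjusted p under 0.05 with no minimum fold. At that looser setting 4536 of the 11964 genes were higher and 5271 lower, so counts from it, here and in other lists, say little. Their log2 fold changes ran from -0.99 to 0.67, with a median of 0.36. The lowest was JAK1, a kinase of both receptor types, at 54.4 and 55.8 FPKM on TCP and 28.1 and 26.4 FPKM on polymer X; it is singled out after its values were seen because it lay next to the threshold.

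Of 9 listed transcription factors that act downstream of the receptors, IRF8, named after its values were seen, was at 0 in all 4 libraries. Of the 8 tested, all of which passed the filter on their TCP values, 3 were higher, and limma called 0 lower, with 1 lower at an unadjusted p under 0.05. The log2 fold changes of the 8 ran from -0.21 to 2.12, with a median of 0.46. IRF9 rose from 4.83 and 4.63 to 24.0 and 23.8 FPKM, with a log2 fold change of 2.12 (adjusted p = 4.66e-09). STAT2 rose from 5.64 and 5.83 to 23.8 and 22.5 FPKM, a log2 fold change of 1.85 (adjusted p = 1.07e-08), and IRF7 from 5.16 and 5.60 to 19.97 and 20.08 FPKM, by 1.72 (adjusted p = 1.84e-08). Of 7 negative regulators tested, SOCS3 was higher, with a log2 fold change of 1.05 (adjusted p = 4.14e-07), and PTPN11, a tyrosine phosphatase, was lower, with -1.24 (adjusted p = 1.37e-07), a call that was lost with quantile normalization. The others ran between these values, with a median of 0.28 over the 7. USP18, named after its values were seen, lay next to the threshold at 0.99. With a pseudocount of 0.1, 3 negative regulators were higher. The calls are 14.3% higher and 14.3% lower, beside 10.7% and 9.45% of all tested genes. Nothing particular to these regulators is read from them.

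Many other type I effectors were also higher. Of 38 tested, 19 were higher on polymer X and limma called 0 lower, with 5 lower at an unadjusted p under 0.05, and the median log2 fold change was 1.11 against -0.06 for all genes. The list was chosen with earlier results of these data known. Of the 38, 12 passed the filter only through the polymer X libraries, a path that favours genes high there and so can raise the median. Of the 19 higher genes, 11 passed in this way. Among the 26 that passed on TCP alone 8 were higher, against 848 of 11040 for all genes. In log2(FPKM + 1) the largest differences were in OAS1 and OAS2, enzymes that activate RNase L, both among the 11. OAS1 went from 0.172 and 0.258 to 26.1 and 23.1 FPKM, a log2 fold change of 4.39, and OAS2 from 0.066 and 0.246 to 10.8 and 9.15 FPKM, of 3.25. ISG15, a ubiquitin-like modifier, went from 12.0 and 10.6 to 105 and 83.2 FPKM, of 2.95 (limma adjusted p = 1.19e-08). TRIM22 and XAF1, also among the 11, followed with 2.54 and 2.41. The most abundant was BST2 (tetherin), at 51.5 and 51.6 FPKM on TCP and 232 and 223 FPKM on polymer X, with 2.12. Promoter windows were at hand for 34 of the listed effectors, and 23 of these held the ISRE core, which 4.38% of the 27305 genes with a window held. The genes were listed as interferon effectors, so nothing about these data is read from this count.

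Genes known for their response to interferon gamma formed a further list. Of 18 listed, 7 were tested and 4 were higher, with limma calling 0 lower (0 also at an unadjusted p under 0.05). They were IDO1, at 10.4 and 8.10 FPKM on TCP and 66.0 and 60.2 FPKM on polymer X, and GBP5, ICAM1 and GBP2, with log2 fold changes of 2.47, 2.37 and 1.46. The last 3 passed the filter only through the polymer X libraries. Of the 11 that did not pass the filter, CXCL9, HLA-DRA and HLA-DPA1 were at 0 in all 4 libraries. CIITA, the regulator of class II genes, had 0 and 0.005 FPKM on TCP and 0.431 and 0.281 FPKM on polymer X, and CD74 had 0.080 and 0.103 FPKM on TCP and 0.905 and 1.18 FPKM on polymer X. CXCL10 and CXCL11 went from 0 tags in both TCP libraries to 11 to 15 tags on polymer X, and GBP4 and HLA-DMA were also higher in both polymer X libraries. CD274 overlapped between the groups, and HLA-DRB1 had 2 tags in a single polymer X library. The untested genes are named after their values were seen.

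**Figure D5:**
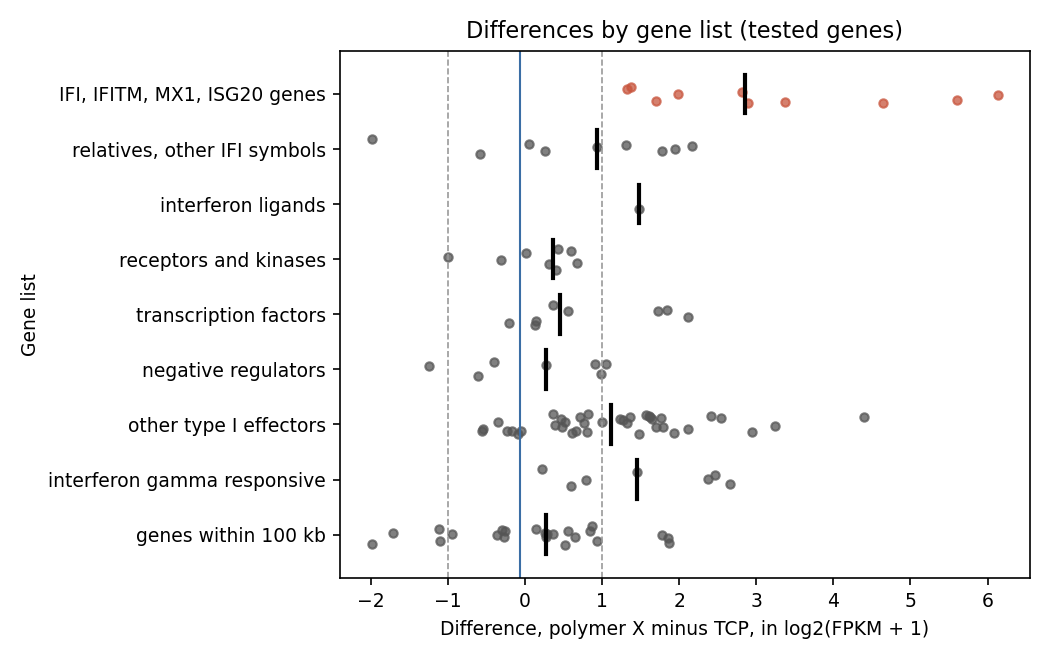
Difference between polymer X and TCP in log2(FPKM + 1) for the tested genes of each list, with a point for each gene and a black bar at the list's median. Dashed lines mark -1 and 1, the blue line is the median of all tested genes (-0.06), and the 10 genes, in red, have a median of 2.86.

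The labelled cell type and other cell types were looked at through marker genes. Of 8 tested markers of ovarian epithelial lines, 4 were higher on polymer X (ERBB2, MUC1, PAX8 and EPCAM), with limma calling 0 lower and 3 lower at an unadjusted p under 0.05, as were 5271 of all 11964 genes. EPCAM passed the filter only through its polymer X libraries. The 3 lower ones, named after their values were seen, were the keratins KRT8, KRT18 and KRT7, with log2 fold changes of -0.87, -0.44 and -0.76. KRT8 was the most abundant on TCP, at 262 and 269 FPKM, with 146 and 143 FPKM on polymer X. ERBB2 was the most abundant on average, at 198 and 206 FPKM on TCP and 913 and 860.4 FPKM on polymer X. None of 8 leukocyte markers passed the filter on low values; their summed level was 0.517 and 0.263 FPKM on TCP and 1.26 and 2.03 FPKM on polymer X, and CD3E, TYROBP and CLEC4C were at 0 in all 4 libraries. FCER1G was the highest of them, at 0.357 and 0.152 FPKM on TCP and 0.257 and 0.968 FPKM on polymer X. PTPRC, the defining leukocyte marker, had 0.005 and 0 FPKM on TCP, from 1 and 0 tags, and 0.468 and 0.530 FPKM on polymer X, from 92 and 106 tags. It was thus detected on polymer X above the floor of 3 tags, and is named after its values were seen. None of 6 endothelial markers passed the filter, with sums of 0.652 and 0.729 FPKM on TCP and 1.40 and 1.21 FPKM on polymer X and with KDR the highest on average, at 0.476 and 0.438 FPKM on TCP and 0.215 and 0.110 FPKM on polymer X. Of this list PECAM1 had 0 FPKM in both TCP libraries and 0.573 and 0.458 FPKM on polymer X, and TIE1 had 0.060 and 0.115 FPKM on TCP and 0.439 and 0.609 FPKM on polymer X; both are named after their values were seen.

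Fibroblast markers were looked at in the same way. Of 7 listed, 5 were tested and 4 were higher, with limma calling 0 lower and 1 lower at an unadjusted p under 0.05; the summed level of the list was 17.0 and 17.8 FPKM on TCP and 86.4 and 76.3 FPKM on polymer X. COL1A2 was the most abundant on average, at 8.41 and 8.75 FPKM on TCP and 45.8 and 42.2 FPKM on polymer X. LUM, DCN and COL3A1 had log2 fold changes of 4.31, 2.93 and 2.53, and these 3 passed the filter only through their polymer X libraries. COL1A1, named after its values were seen, had 8.21 and 8.48 FPKM on TCP and 3.81 and 3.77 FPKM on polymer X (log2 difference -0.96), and was called lower with a pseudocount of 0.1 and with quantile normalization. The fibroblast surface markers PDGFRB and THY1, named after their values were seen, stayed below the filter. PDGFRB had 0.106 and 0.083 FPKM on TCP and 0.115 and 0.026 FPKM on polymer X, values that overlap between the groups. THY1 had 0.139 and 0.184 FPKM on TCP and 0.049 and 0 FPKM on polymer X. The means of PDGFRB and THY1 were lower on polymer X. The part of such markers in the differences of the interferon genes was not tested.

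Position was a further feature the choice of the genes did not use. Of 33 genes that lie within 100 kb of any of the 10, 23 were tested, and 3 were higher and 4 lower on polymer X, with a median log2 fold change of 0.27. These are 13.0% and 17.4% of the neighbours, beside 10.7% and 9.45% of all tested genes, and nothing particular to the neighbours is read from them. With quantile normalization 5 were higher and 2 lower. Next to the IFITM cluster, B4GALNT4 was higher, by 1.85, PGGHG was higher, by 1.87, and the proteasome subunit gene PSMD13 was lower, by -1.12. MX2, beside MX1, was described above, as was AEN, beside ISG20. Near IFI35, BRCA1 and the ribosomal protein gene RPL27 were lower, by -1.72 and -1.10. VAT1, which lies on the opposite strand with its end next to that of IFI35 and is named after its values were seen, had a log2 fold change of 0.87, below the threshold.

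Finally, the tested genes outside the 10 were ordered by how close their mean-centred log2(FPKM + 1) profile over the 4 libraries lay to the median profile of the 10. The nearest were MMP13, DCN, TXNIP, S100A1 and ABCA3, at Euclidean distances of 0.058, 0.072, 0.124, 0.134 and 0.136. DCN and ABCA3 passed the filter on low values only through their polymer X libraries. MMP13, a collagenase, had 1.74 and 1.79 FPKM on TCP and 20.3 and 17.0 FPKM on polymer X. Its higher value in replicate 1 on polymer X follows from ordering the genes by likeness to a profile that has it. With 4 libraries in 2 groups, such a likeness says little more than that the genes had a similar difference.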

How the data were processed

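RNA-seq of SKOV3 cells was compared between 2 libraries on TCP and 2 on polymer X, grouped by their labels. The values are FPKM that the authors deposited for each RefSeq transcript, made with HOMER on hg19 from tags on the exons of both strands; the submitters' processing notes also name STAR 2.4.0 and DESeq. The 10 genes and the gene lists were chosen with earlier results of these data known. Each symbol was represented by its transcript with the highest mean FPKM. A linear model (limma 3.58.1 with a variance trend, R 4.3.3) was fitted to log2(FPKM + 1) of the 11964 genes that reached 1 FPKM in 2 libraries, with Benjamini-Hochberg adjustment over all of them. Calls needed a log2 difference of 1 or more in either direction and an adjusted p below 0.05. The fit was tested on simulated data. Tags per library were recovered from the low values, of which 100% lay within 0.1 of a whole number; Poisson intervals and floors of 3 tags cover counting error only and are too small if tags are mates of a pair. Sequences came from RefSeq (GRCh38.p14) and GENCODE 29, matched by symbol; no coordinates were converted between builds. Tables were handled with Python 3.11.15 and pandas 2.3.3.

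Named were the 10 genes, the family relatives, the called genes of the ligand, receptor, transcription factor and negative regulator lists, the 5 called genes with the largest change and the gene with the highest mean FPKM of each other list, the called neighbours within 100 kb and the 5 genes nearest in pattern. Alternatives were another pseudocount, other filters, other scalings, a sum over transcripts, no variance trend, a larger minimum fold, a replicate block and leaving out each library. One listed gene is not reported here by name. Libraries named in the file header beyond these 4 were not analysed here.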

Additional observations from a re-analysis of the deposited data

How the results depend on the processing

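The direction of each of the 10 genes was the same in all 108 alternative values, 16 of which moved by more than the spread between replicates. The genes were chosen for this direction, so nothing is read from its constancy. Some settings, such as no filter and the replicate block, leave the values of single genes unchanged by construction. Of 377 alternative values of the counts and of the median of the 10 genes, 56 belong to marker lists without a tested gene and are 0 throughout, and another 45, with the replicate block or without the variance trend, equal the reported values. Of the remaining 276, 225 stayed within the replicate spread or within 1.5 times the count, and 51 did not. The cause was not tested beyond what each setting itself changes. For the 10 genes the median difference, 2.86 on the log2 scale, was 4.13 with a pseudocount of 0.1, 3.09 with a mean FPKM of at least 5, 2.70 with quantile normalization, and 2.76 to 2.96 without each library in turn.

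With no minimum fold, 4477 genes were higher and 5212 lower; higher and lower calls were 5 and 2 for receptors and kinases, 5 and 1 for transcription factors, 4 and 3 for negative regulators, 31 and 5 for other type I effectors and 13 and 9 for neighbours. There were 7 interferon gamma responsive genes higher, and 2 family relatives, 3 ovarian epithelial markers and 1 fibroblast marker lower. With a minimum of 2, 281 genes were higher and 150 lower; 1 family relative, 0 ligands, 1 transcription factor, 0 negative regulators, 6 other type I effectors, 2 ovarian epithelial markers and 0 neighbours were higher, and 0 family relatives, 0 negative regulators and 0 neighbours were lower.

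With a mean FPKM of at least 5, which tests fewer genes and keeps 8 of the 10, 702 genes were higher, and 42.2% of calls were higher against 53.2%. The median of all genes was then -0.20. Higher calls were 2 for family relatives, 0 for ligands, 10 for other type I effectors, 1 for interferon gamma responsive genes and 2 for fibroblast markers, and 0 family relatives were lower. With a pseudocount of 0.1, 3 negative regulators were higher, and 1 receptor or kinase (JAK1) and 1 fibroblast marker were lower. With quantile normalization 5 neighbours were higher and 2 lower, 0 negative regulators were lower and 1 fibroblast marker was lower. Scaled to a common median, 2 negative regulators were higher. With summed transcripts 1 receptor or kinase was lower.

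Leaving out each library in turn, 4 to 5 family relatives were higher (5 without TCP replicate 1), 0 to 1 receptors and kinases were lower (1 without TCP replicate 1 or polymer X replicate 1) and 1 to 2 negative regulators higher (2 without either polymer X library); the lone library of a group is then assumed to vary like the others. The labels give no batch or day shared by same-numbered libraries, whose deviations correlated at 0.0927 across genes; whether they share one was not tested. A replicate block cannot change a fold in this balanced design, so its median of 2.86 for the 10 genes says nothing of pairing. Its 1285 higher and 1131 lower calls also equalled those without it. A block can change the p-values behind calls, but these equal counts do not show whether the libraries are paired. Depth limits IFI44L and IFITM1 on TCP, which rest on 6 to 12 tags. IFITM2 promoter sequence and protein sequences were not used here.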

Other observations

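Promoter matches can be set beside the calls over all tested genes outside the 10. Of 349 such genes with the ISRE core in a promoter window, 12.9% were called higher on polymer X and 7.16% lower, against 9.67% and 9.74% of the 9193 without. Of 33 genes with its longer form, 33.3% were higher and 12.1% lower, against 9.71% and 9.63% of the 9509 without. Of 791 genes with the GAS core, 10.2% were higher and 10.6% lower, against 9.75% and 9.55% of the 8751 without. These shares were not tested. The genes with the element include effectors listed in the report, and so are not independent of it.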
